A study of Mus musculus with 6 samples.

Results

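Collagen genes, taken as all genes whose symbol reads Col, a number, a, a number, were compared between collecting duct cells of Bdkrb2 knockout and wild-type newborn mice. The RefSeq table of assembly GRCm38.p6 held 44 such genes, 43 had a named probe on the array, and 36 of the 14755 genes tested belonged to them. A gene was tested where its probe was well above background in the sample channel (Cy5) on at least 3 of the 6 arrays. Of the 36, 28 were well above background on all 6 arrays. Col10a1, Col17a1, Col19a1, Col28a1, Col6a5, Col6a6 and Col9a3 were on the array and did not reach the filter, and Col12a1 had no named probe.

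Collagens are proteins of 3 chains wound into a helix. Fibrillar collagens assemble into the banded fibres of interstitial matrix and are made mainly by fibroblasts, stromal cells and cartilage cells. Type IV collagen forms the sheet-like network of basement membranes under epithelia, where tubules of the kidney rest on it, and its chains are encoded by gene pairs that share a promoter region. The remaining families decorate fibrils (the FACIT collagens, short for fibril-associated collagens with interrupted triple helices), build beaded microfilaments (type VI), form hexagonal nets (type VIII), anchor epithelia to stroma (type VII), sit at basement membranes with large sugar chains (types XV and XVIII) or span the cell membrane.

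The series set 3 KO samples against 3 WT samples, all C57BL/6, in which cells positive for GFP and dsRED had been sorted from kidneys at postnatal day 1 after high salt in gestation (food with 5% sodium). KO pups carried Hoxb7-Cre, floxed alleles of Bdkrb2 (the bradykinin B2 receptor gene) and the R26R tdTomato reporter. WT pups carried the same Cre and reporter with Bdkrb2 +/+, so Cre, reporter and salt were common to both groups. Hoxb7-Cre marks the ureteric bud lineage, and the parents given for KO are floxed, so genotype and litter cannot be told apart. How many animals a sample pooled is not stated in the labels, and p-values measure only the spread between these samples. Each array set sample RNA (Cy5) against RNA of WT replicate 1 (Cy3), without a dye swap. The labels name this reference and the files carry both channels, although the design text speaks of single-colour arrays. The level given throughout is the log2 ratio of Cy5 over Cy3 after loess.

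The probe of Bdkrb2 stayed near background on all 6 arrays (0.972 to 1.11 times the local background), so it checked no genotype label. All 14 tested markers of the collecting duct, water channels and the proton pump subunit Atp6v1b1 among them, were lower in KO. Their array medians were -0.22 to 0.02 in WT and -2.20 to -1.91 in KO. The remaining marker, Scnn1g, did not rise above background. Of 14 markers of renal stroma 11 were higher and 1 lower, with array medians of 0.12, -0.57 and -0.77 for WT replicates 1 to 3 and of 1.57, 1.18 and 0.86 for KO replicates 1 to 3. Higher in KO were also 7 of 8 nephron progenitor markers and 2 of 6 podocyte markers, while 8 of 9 endothelium markers were lower. Of 5 leukocyte markers 4 were higher (C1qa, C1qb, Adgre1 and Tyrobp) and 1, Ptprc, was lower (-0.43, limma adjusted p = 0.0152). Of the 5 cartilage markers Sox5 alone was tested and was not called, Acan and Comp were well above background on 2 arrays each, Matn1 on 1 and Matn3 on 0. The stroma and nephron progenitor lists thus mostly rose, and so did the leukocyte list except Ptprc. The collecting duct and endothelium lists fell, and 4 of 6 podocyte markers were not called. The part of these lists in the collagen results was not tested.

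Most collagen genes were higher in KO, and the type IV genes were not among them. Of the 36, 20 rose, 5 fell and 11 were not called (limma, Benjamini-Hochberg adjusted p under 0.05 over all 14755 genes). The call took in 69.4% of the collagen genes and 35.3% of all genes tested, of which 15.3% were higher and 20.0% lower in KO. The median difference, KO minus WT, was 0.57 on the log2 scale for the collagen genes and -0.02 for all genes. No overlap between KO and WT values was seen in 26 of the 36 collagen genes and in 52.1% of all genes. The change was at least 2-fold for 13 collagen genes, 12 of them higher. In bulk RNA a lower share of a cell type and less RNA per cell cannot be told apart.

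**Figure D1:**
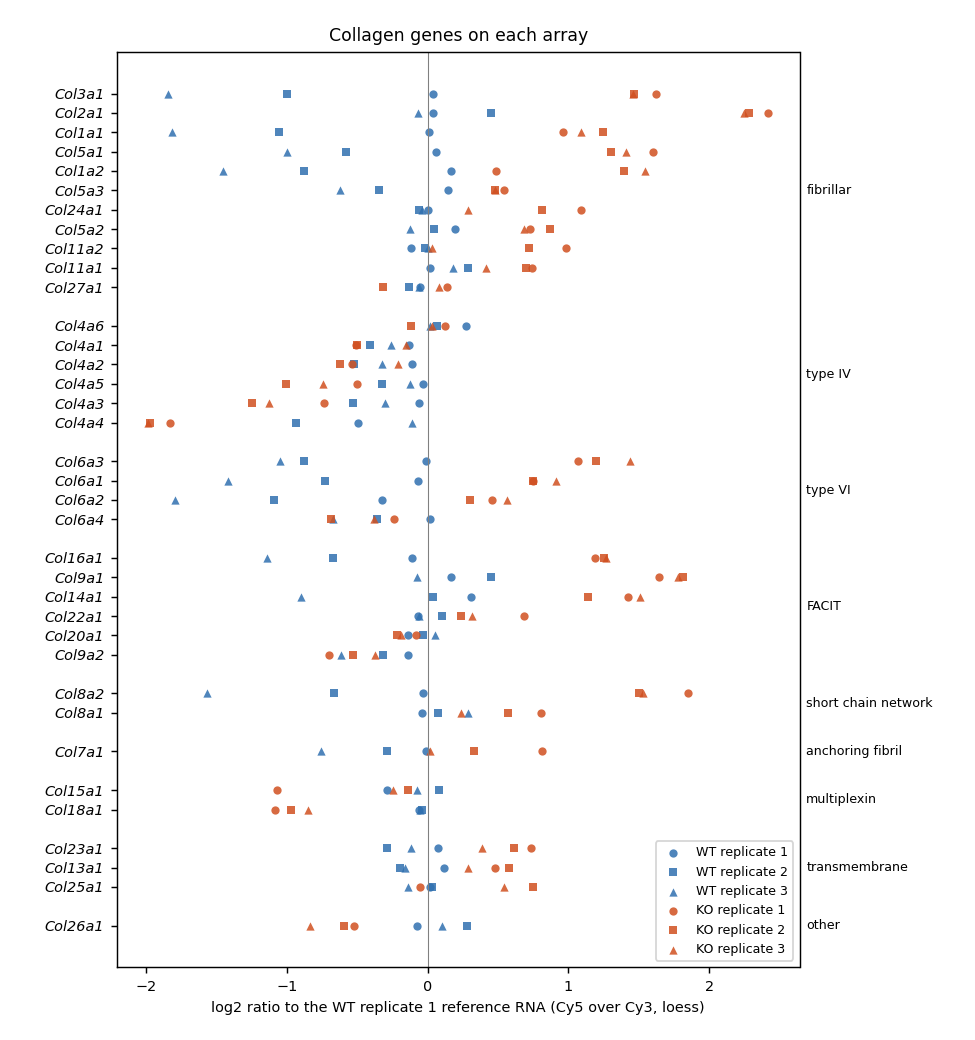
Log2 ratio of each collagen gene to the WT replicate 1 reference RNA (x axis) on the 3 WT arrays (blue) and the 3 KO arrays (orange), with genes grouped by chain family. The KO points of Col3a1, Col2a1, Col8a2 and Col16a1 lie above 1 and all WT points below 0.5, whereas the KO points of Col4a4 lie below -1.8.

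The filter admitted genes through either group, and this bears on the counts. Col13a1, Col22a1 and Col8a1 were well above background on all 3 KO arrays and on no WT array, and Col6a4 passed with 1 WT and 2 KO arrays. Just outside the filter, Col17a1, Col6a5, Col6a6 and Col9a3 were well above background on 1 array each. Among the 28 collagen genes well above background on all 6 arrays, 16 rose and 5 fell, beside 2007 higher and 2859 lower of 13428 genes so detected.

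The stretches of 250 bases upstream of the RefSeq start are shown for 5 genes whose values carry the results, 4 that rose and 1 that fell, and whose window overlaps no annotated gene. Capitals mark 3 short motifs or their reverse complements: CCAAT, the box bound by NF-Y; TATAAA, that of the TATA-binding protein; and GGGCGG, that of Sp1-like factors. Each window is written 5′ to 3′ in the direction of the gene, in assembly GRCm38.p6.
Col3a1, chr1:45311288-45311537, plus strand: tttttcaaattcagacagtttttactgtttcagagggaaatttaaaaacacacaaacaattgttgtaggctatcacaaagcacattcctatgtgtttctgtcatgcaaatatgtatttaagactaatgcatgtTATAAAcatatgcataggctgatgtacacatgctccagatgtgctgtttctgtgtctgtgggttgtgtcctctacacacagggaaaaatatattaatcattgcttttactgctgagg
Col1a2, chr6:4505368-4505617, plus strand: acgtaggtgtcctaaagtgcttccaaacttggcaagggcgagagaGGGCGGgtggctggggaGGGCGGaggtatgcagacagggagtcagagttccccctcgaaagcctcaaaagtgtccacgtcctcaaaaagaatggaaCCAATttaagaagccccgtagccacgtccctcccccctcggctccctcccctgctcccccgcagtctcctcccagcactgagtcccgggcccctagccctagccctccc
Col6a1, chr10:76726045-76726294, minus strand: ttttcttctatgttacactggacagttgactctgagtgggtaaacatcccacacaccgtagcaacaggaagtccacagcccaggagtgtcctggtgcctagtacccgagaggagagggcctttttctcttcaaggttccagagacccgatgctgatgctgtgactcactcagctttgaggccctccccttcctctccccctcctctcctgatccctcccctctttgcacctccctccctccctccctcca
Col8a2, chr4:126286544-126286793, plus strand: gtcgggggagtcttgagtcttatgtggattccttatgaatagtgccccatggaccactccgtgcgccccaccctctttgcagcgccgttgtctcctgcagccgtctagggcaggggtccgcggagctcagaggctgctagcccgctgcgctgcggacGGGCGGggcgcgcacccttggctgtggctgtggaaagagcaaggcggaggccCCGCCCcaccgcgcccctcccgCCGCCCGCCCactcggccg
Col18a1, chr10:77166531-77166780, minus strand: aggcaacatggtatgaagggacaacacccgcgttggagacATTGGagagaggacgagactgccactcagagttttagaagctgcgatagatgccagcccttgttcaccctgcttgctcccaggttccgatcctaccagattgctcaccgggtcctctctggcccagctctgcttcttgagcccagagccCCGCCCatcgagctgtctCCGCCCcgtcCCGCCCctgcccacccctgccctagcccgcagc

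In these letters the 5 windows differed from each other. That of Col3a1 held a single TATAAA and 35.2% G and C, that of Col8a2 held 4 GGGCGG matches and 70.0% G and C, and that of Col6a1 held none of the 3 motifs. RefSeq windows were at hand for 29 of the 36 genes, and a gene with several starts was counted by the window listed first in the table. For Col18a1 that is the window shown, and its other window, chr10:77113706-77113955 inside the gene, held none of the 3 motifs. Searched on both strands, GGGCGG was in 65.5% of the 29 collagen windows and in 32.9% of the windows of all 27025 genes in the table, CCAAT in 37.9% and 34.5%, and TATAAA in 10.3% and 13.0%. GGGCGG was in 9 of 15 windows of genes that rose, in 2 of 3 of genes that fell and in 8 of 11 of genes not called. The median content of G and C was 60.4% in the collagen windows and 52.0% in all. A match is a run of letters and not a bound site.

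Most fibrillar collagen genes were higher in KO. Of 11 tested, 9 rose by the limma test, 0 fell and 2 did not pass (81.8% called, beside 35.3% of all genes). The median difference was 0.78. Slide row here means the first of the 2 numbers that end each sample's description, taken to be the array's row on the slide. With slide row as a block, a fit in which the 3 KO arrays are set against WT replicate 1 alone, 4 were called. At an unadjusted p under 0.05 10 passed, and all 11 differences were above 0. Col1a1 and Col1a2 encode the chains of type I collagen, the most abundant fibrillar collagen, Col3a1 that of type III, Col5a1, Col5a2 and Col5a3 those of type V, which starts fibrils, and Col2a1 and Col11a1 chains known from cartilage.

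Col3a1 had log2 ratios of 0.04, -1.001 and -1.84 on WT replicates 1 to 3 and of 1.62, 1.47 and 1.46 on KO replicates 1 to 3. All KO arrays lay above all WT arrays, and the WT arrays were spread while the KO arrays were close together. The difference was 2.45 ± 0.40 (SE, n = 3 per group), a 5.47-fold higher level (adjusted p = 0.0025). With the slide row block it was 1.48 (adjusted p = 0.021).

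Col1a1 gave 0.01, -1.05 and -1.82 in WT and 0.97, 1.25 and 1.09 in KO. WT replicate 3 was the lowest WT array, as for Col3a1, and the groups did not overlap. The difference was 2.06 ± 0.39 (4.16-fold, adjusted p = 0.00498), and 1.09 with the slide row block (adjusted p = 0.0472). Its partner Col1a2 gave 0.16, -0.88 and -1.45 in WT and 0.48, 1.39 and 1.55 in KO. KO replicate 1 was the lowest KO array for Col1a2, by about 0.9, which it was not for Col3a1. The difference of 1.86 ± 0.42 (3.64-fold, adjusted p = 0.0105) was 0.98 and not called with the slide row block (adjusted p = 0.171).

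Col2a1 stood apart from the type I and III genes in its WT arrays, which did not spread downwards. It gave 0.04, 0.45 and -0.07 in WT and 2.42, 2.29 and 2.25 in KO, with no overlap. The difference was 2.18 ± 0.15 (4.53-fold, adjusted p = 0.000185), and 2.28 with the slide row block. Col2a1 was well above background on all 6 arrays.

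Among the type V genes, Col5a1 gave 0.06, -0.58 and -0.995 in WT and 1.60, 1.30 and 1.41 in KO, a difference of 1.95 ± 0.24 (3.85-fold, adjusted p = 0.000794). Col5a2 and Col5a3 changed less, by 0.72 ± 0.12 and 0.78 ± 0.18 (adjusted p = 0.00252 and 0.0125), with KO arrays at 0.68 to 0.87 and 0.48 to 0.54. Both rose without overlap, and both lost the call with the slide row block (adjusted p = 0.06 and 0.199). The type XXIV gene Col24a1 rose by 0.76 ± 0.19 (adjusted p = 0.0158), with KO arrays at 1.09, 0.81 and 0.29 and WT arrays at -0.06 to 0.00. Its call was lost without KO replicate 2 or WT replicate 3 (adjusted p = 0.0549 and 0.057) and with the slide row block (0.141). Col11a1, of type XI, rose by 0.46 ± 0.13 (adjusted p = 0.0256), and lost the call without KO replicate 2, WT replicate 1 or WT replicate 3 (adjusted p = 0.0823, 0.0912 and 0.0789) and with the slide row block (0.0693). Its partner Col11a2 had KO ratios of 0.98, 0.72 and 0.03 and did not pass (0.62 ± 0.22, adjusted p = 0.062), but passed without KO replicate 3 (0.90, adjusted p = 0.00307), with Cy5 alone (1.73) and with median centring (0.89). Col27a1, a chain of cartilage fibrils, gave 0.05 ± 0.14 and overlapping groups.

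Type IV collagen genes took the other direction or did not pass. Of 6 tested with limma, 0 rose and 3 fell (50% called, beside 35.3% of all genes, of which 20.0% were lower). The count was the same at an unadjusted p under 0.05, and the median difference was -0.36. With median centring the median of the class was -0.054, and Col4a4 alone was called. Col4a1 and Col4a2 encode the chains found in all basement membranes, whereas Col4a3, Col4a4 and Col4a5 encode the chains of the mature glomerular and tubular basement membrane, where mutations cause Alport syndrome.

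Col4a4 gave -0.49, -0.93 and -0.11 in WT and -1.83, -1.97 and -1.99 in KO. All KO arrays lay below all WT arrays. The difference was -1.42 ± 0.19, a 2.67-fold lower level (adjusted p = 0.00119), and -1.44 with the slide row block (adjusted p = 0.0219). Its other probes gave -1.29 and -1.75.

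Col4a3, which lies next to Col4a4 on chromosome 1, gave -0.06, -0.53 and -0.30 in WT and -0.73, -1.25 and -1.13 in KO. WT replicate 2 was the lowest WT array and KO replicate 2 the lowest KO array, and the groups did not overlap. The difference was -0.74 ± 0.17 (1.67-fold lower, adjusted p = 0.012), and -0.55 and not called with median centring (adjusted p = 0.0923). Col4a5, on the X chromosome, gave -0.03, -0.32 and -0.13 in WT and -0.50, -1.004 and -0.74 in KO. Its difference of -0.59 ± 0.15 (1.505-fold lower, adjusted p = 0.0169) was close to the threshold. The call was lost with the Agilent log ratio (adjusted p = 0.0515), with Cy5 alone (0.0724), with median centring (-0.30, 0.368), with the slide row block (0.0702) and without KO replicate 2, WT replicate 1 or WT replicate 3 (0.0523, 0.0622 and 0.0657).

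Col4a1 and Col4a2 kept together on every array. Col4a1 gave -0.13, -0.41 and -0.26 in WT and -0.51, -0.50 and -0.15 in KO, and Col4a2 -0.11, -0.53 and -0.33 in WT and -0.54, -0.62 and -0.21 in KO. Neither passed, with differences of -0.12 ± 0.13 and -0.14 ± 0.15 and overlapping groups. Their start sites in RefSeq lie 21 bases apart on opposite strands of chromosome 8. Col4a6, whose start lies 1343 bases from that of Col4a5, gave -0.11 ± 0.12 and did not pass. Under median centring, which moved the median of all genes from -0.02 to 0.24, the differences of Col4a1, Col4a2 and Col4a6 turned to 0.24, 0.22 and 0.19 and were not called.

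**Figure D2:**
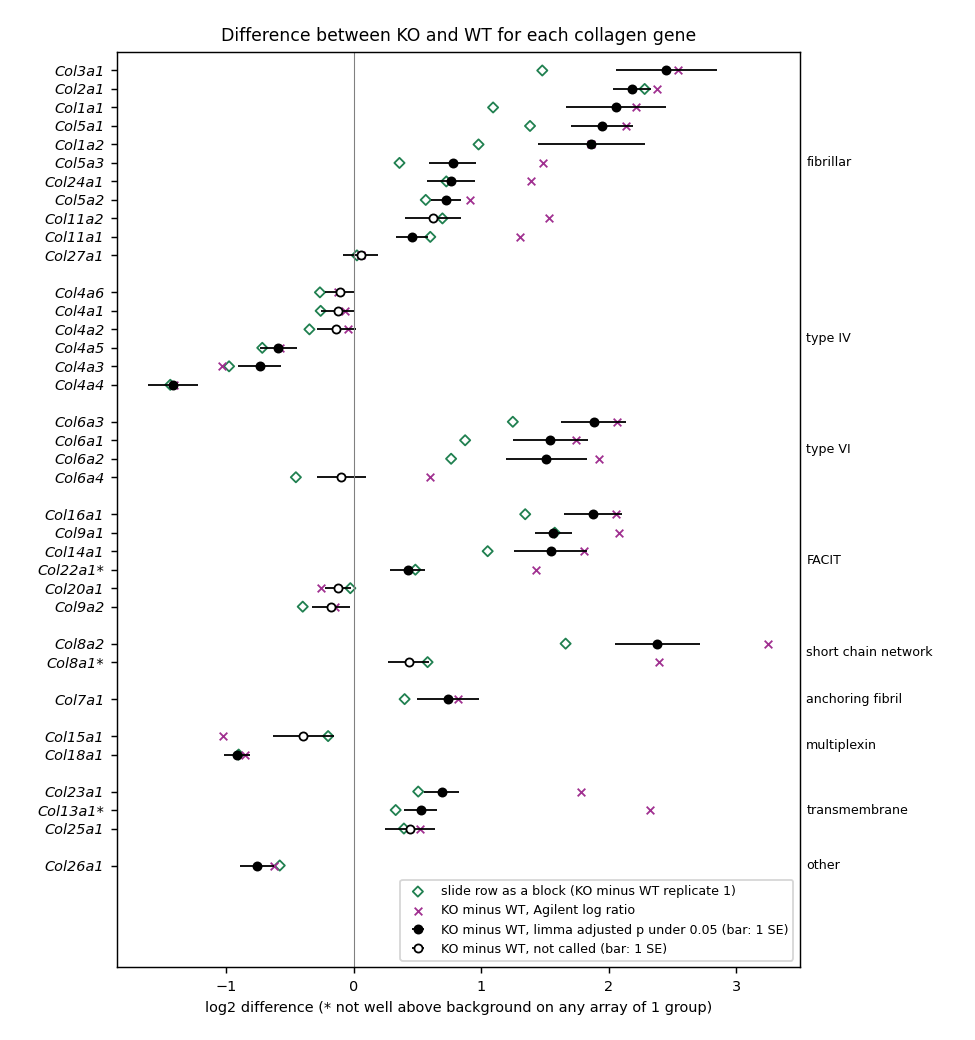
Difference between KO and WT (x axis, log2) for each collagen gene: the fitted value with 1 SE (circles, filled where adjusted p was under 0.05), the value with slide row as a block (diamonds) and that from the Agilent log ratio (crosses). Asterisks mark genes below detection on every WT array, whose plotted sizes are not measured folds. With the slide row block all 36 genes kept their sign and 11 were called.

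Of 4 type VI genes, whose products form microfilaments around cells, 3 rose (75%, beside 35.3% of all genes called) and Col6a4 did not pass. Col6a3 gave -0.01, -0.88 and -1.05 in WT and 1.07, 1.20 and 1.44 in KO, a difference of 1.88 ± 0.26 (3.68-fold, adjusted p = 0.00116). Col6a1 and Col6a2, neighbours on chromosome 10, rose by 1.54 ± 0.29 and 1.51 ± 0.32 (adjusted p = 0.00491 and 0.00803). In both, WT replicate 1 was the highest WT array (-0.07 and -0.32) and WT replicate 3 the lowest (-1.42 and -1.80), and the KO arrays lay at 0.75 to 0.91 and 0.30 to 0.56. With the slide row block the differences were 0.87 and 0.76 and were not called (adjusted p = 0.0665 and 0.109). Col6a4 gave -0.10 ± 0.19 and turned to 0.60 with the Agilent log ratio, not called in either.

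Of 6 FACIT genes 4 rose by the limma test and 0 fell (66.7% called, beside 35.3% of all genes). The counts were the same at an unadjusted p under 0.05, and the median was 0.98. The 4 include Col22a1, below detection on every WT array, and its value enters this median. Of the 5 genes well above background on all 6 arrays 3 rose, and their median was 1.54 over the 5. Col16a1, whose product associates with fibrils and microfibrils, gave -0.11, -0.67 and -1.14 in WT and 1.19, 1.25 and 1.27 in KO. Its difference was 1.87 ± 0.23 (3.67-fold, adjusted p = 0.000749), and its other probes gave 1.75 and 0.26, the latter at background on the WT arrays. Col9a1, of the type IX collagen that coats type II fibrils, gave 0.17, 0.45 and -0.08 in WT and 1.64, 1.81 and 1.78 in KO, a difference of 1.56 ± 0.14 (2.95-fold, adjusted p = 0.00027). Like Col2a1, Col9a1 had WT replicate 2 as its highest WT array. The chain that pairs with it, Col9a2, did not pass (-0.18 ± 0.15), and Col9a3 was not tested. Col14a1, of soft connective tissue, rose by 1.54 ± 0.29 (2.91-fold, adjusted p = 0.00445), with WT arrays at 0.31, 0.04 and -0.90 and KO arrays at 1.42, 1.14 and 1.51. Another probe of it gave 0.94, and the call was lost with the slide row block (1.05, adjusted p = 0.0873). Col20a1 gave -0.12 ± 0.10 and did not pass.

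No size of change is given for the 3 genes below detection on every WT array. Col22a1, a FACIT gene of tissue junctions, was called higher in KO (adjusted p = 0.0452). That call was lost without any single array other than KO replicate 2, with adjusted p from 0.0578 to 0.143, and with the slide row block (0.176). Col13a1, a membrane-spanning collagen, was also called higher (adjusted p = 0.0149), and lost its call without KO replicate 2, WT replicate 2 or WT replicate 3 (adjusted p = 0.0555, 0.052 and 0.0671) and with the slide row block (0.241). Col8a1 was not called (adjusted p = 0.0707), though called higher with the Agilent log ratio (adjusted p = 0.00254), with Cy5 alone, with median centring and without KO replicate 3.

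Col8a2 and Col8a1 encode the chains of type VIII collagen, a network former of Descemet membrane and vessel walls. Col8a2 gave -0.03, -0.66 and -1.56 in WT and 1.85, 1.503 and 1.53 in KO, with no overlap. The difference of 2.38 ± 0.34 (5.21-fold, adjusted p = 0.00137) was next in size to that of Col3a1. With the slide row block it was 1.66 (adjusted p = 0.0202), and with the Agilent log ratio 3.25.

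Col7a1, the anchoring fibril gene, rose by 0.74 ± 0.24 (adjusted p = 0.0459). Its KO ratios were 0.82, 0.33 and 0.02 and its WT ratios -0.01, -0.29 and -0.76, so that the lowest KO array lay 0.03 above the highest WT array. The call was lost under 10 of 16 alternatives, among them the Agilent log ratio (adjusted p = 0.0867), the slide row block (0.40, adjusted p = 0.451) and the fits that left out KO replicate 1, KO replicate 2, WT replicate 2 or WT replicate 3 (adjusted p = 0.0811, 0.0947, 0.092 and 0.157).

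Of the multiplexins, basement membrane collagens with glycosaminoglycan chains, Col18a1 fell. It encodes the precursor of endostatin and is known from the basement membranes of ureteric epithelium and vessels. It gave -0.06, -0.04 and -0.05 in WT and -1.08, -0.97 and -0.85 in KO, the tightest WT values of the 36 genes. The difference was -0.91 ± 0.10 (1.88-fold lower, adjusted p = 0.000483), another probe gave -0.88, and the call was lost only with median centring (-0.51, adjusted p = 0.0953) among the 16 alternatives. Col15a1 gave -1.07, -0.14 and -0.25 in KO, so that KO replicate 1 alone lay below the WT arrays (-0.29, 0.08 and -0.07). Its difference of -0.39 ± 0.24 did not pass, and was -1.02 with the Agilent log ratio. Another probe of Col15a1, well above background on 4 arrays, gave -0.10.

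Among the membrane-spanning collagens Col23a1 rose by 0.69 ± 0.14 (adjusted p = 0.00605), with 1 WT array and 3 KO arrays well above background. Another probe of it, well above background on 5 arrays, gave 0.06, so its change is uncertain, and the call was lost with the slide row block (adjusted p = 0.119). Col25a1 gave 0.44 ± 0.20 and did not pass, but was called without KO replicate 1 (0.68, adjusted p = 0.00262) and with median centring (0.69). Col26a1, a secreted protein with short collagen stretches, fell by 0.76 on the log2 scale (SE 0.13, adjusted p = 0.00353). Its KO arrays at -0.84 to -0.53 lay below its WT arrays at -0.07 to 0.28, and the call was lost with median centring (-0.41, adjusted p = 0.171) and the slide row block (-0.58, adjusted p = 0.0773).

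The size of the change in dim genes differed with the processing. With the offset of the background step at 16 in place of 50 and all else kept, the difference was 0.98 for Col5a3, 1.02 for Col24a1, 0.66 for Col11a1, 0.85 for Col11a2 and 0.99 for Col23a1. The Agilent log ratio, which differs in background subtraction and dye normalisation as well as in having no offset, gave 1.48, 1.39, 1.30, 1.53 and 1.78 in the same order. The median of the fibrillar class was 1.02 with the offset of 16 and 1.53 with the Agilent log ratio, and that of the FACIT class 1.15 and 1.62. Which of these steps moved the values was not tested.

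The WT arrays were not alike in many of these genes. Among the 20 genes that rose, WT replicate 1 was the highest WT array in 16 and WT replicate 3 the lowest in 15, and the spread of the WT arrays exceeded that of the KO arrays in 16. The median SD was 0.45 in WT and 0.15 in KO for these 20 genes, and 0.18 and 0.16 for the 5 that fell. By this reading of the numbers in the sample descriptions, WT replicate 1 shared its row with the KO arrays, and WT replicates 2 and 3 lay in the other row. WT replicate 1 was also the Cy3 reference, so that row, WT replicate and reference cannot be told apart. In all 20 genes that rose every KO array lay above every WT array, and in all 5 that fell every KO array lay below. That takes in WT replicate 1, which was itself in the test that called these genes. Its place below or above the KO arrays is thus no separate check on row, replicate or reference. With slide row as a block 11 collagen genes were called: Col3a1, Col2a1, Col1a1, Col5a1, Col6a3, Col16a1, Col9a1 and Col8a2 as higher and Col4a3, Col4a4 and Col18a1 as lower. Without WT replicate 3, 15 rose and 4 fell.

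**Figure D3:**
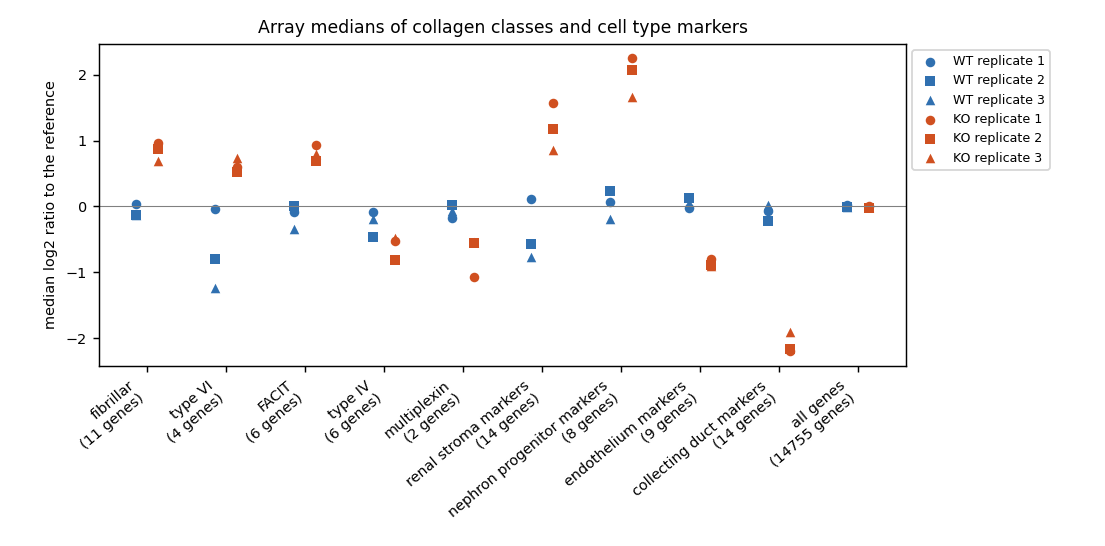
Median log2 ratio (y axis) of collagen classes, of cell type marker lists and of all genes on each of the 3 WT arrays (blue) and 3 KO arrays (orange). The type VI and stroma medians are highest on WT replicate 1 and lowest on WT replicate 3 among the WT arrays and above 0.5 on all KO arrays, while the medians of all genes stay within 0.03 of 0.

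Of the fibrillar, type IV, type VI and FACIT array medians, type VI alone was highest on WT replicate 1 and lowest on WT replicate 3 among WT arrays. The type VI median was -0.04, -0.80 and -1.23 in WT and 0.60, 0.52 and 0.74 in KO, and that of stroma markers, given above, was likewise lowest on WT replicate 3 of the WT arrays. The fibrillar median moved less in WT (0.04, -0.13 and -0.13, against 0.97, 0.87 and 0.68 in KO). The FACIT median was -0.09, 0.001 and -0.35 in WT and 0.94, 0.69 and 0.79 in KO. The type IV median was -0.08, -0.47 and -0.19 in WT and -0.52, -0.81 and -0.48 in KO, so that the lowest WT median and the highest KO median nearly met. Of the 14 stroma markers 11 rose and 1 fell. The 2 not called were Dcn and Lum, matrix genes of fibroblasts (0.54 ± 0.44 and 0.34 ± 0.46).

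Pairs of chains from one collagen type or from related types were compared by the difference of their ratios on each array, in 12 pairs tested by exact 2-sided permutation over the 6 arrays. The smallest p that 3 against 3 arrays allow in this permutation test is 0.1, so none could pass. Adjusted over the 12 pairs, the smallest p obtained was 0.171. Between KO and WT, Col1a1 minus Col1a2 differed by 0.19 with overlapping groups, Col6a1 minus Col6a2 by 0.03 and Col4a1 minus Col4a2 by 0.01. The last of these lay between -0.02 and 0.12 on all 6 arrays, whereas Col1a1 minus Col1a2 ranged from -0.45 to 0.48 within KO.

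Other pairs separated without overlap, each at p = 0.1 in the exact permutation test. Col9a1 minus Col9a2 was 0.30 to 0.77 in WT and 2.15 to 2.35 in KO, a difference of 1.74. Col5a1 minus Col5a2 differed by 1.22 and Col11a1 minus Col5a1 by -1.49, the latter by -0.83 with the Agilent log ratio. Within type IV, Col4a3 minus Col4a4 differed by 0.68, Col4a5 minus Col4a6 by -0.48 and Col4a3 minus Col4a1 by -0.62. With the Agilent log ratio Col4a3 minus Col4a4 differed by 0.37 and Col4a3 minus Col4a1 by -0.97. No value is given for Col8a1 minus Col8a2, because Col8a1 was at background in WT. In the pairs Col6a1 with Col6a3 (-0.34) and Col15a1 with Col18a1 (0.52) the groups overlapped (p = 0.2 in the exact permutation test).

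**Figure D4:**
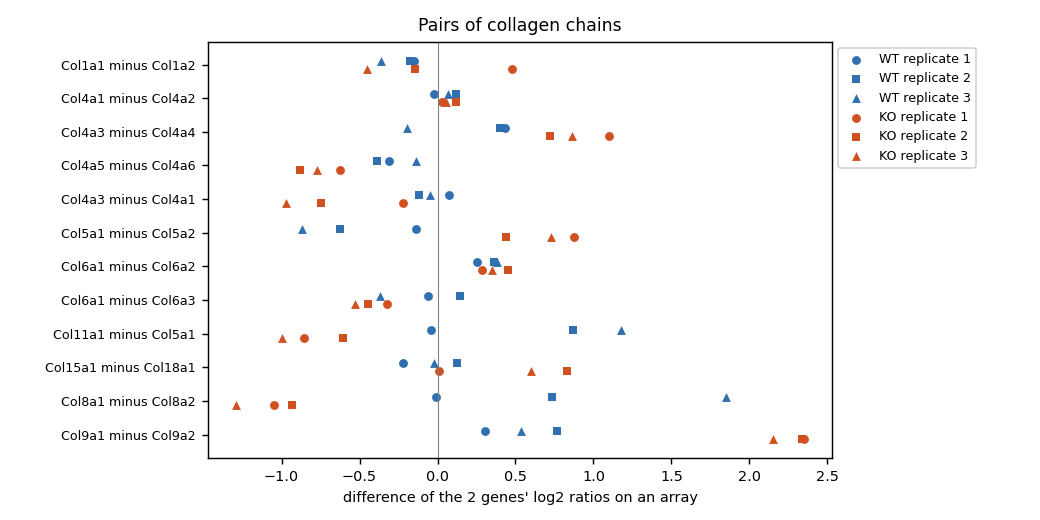
Difference between the log2 ratios of 2 collagen genes on the same array (x axis) for 12 pairs, in the 3 WT arrays (blue) and the 3 KO arrays (orange). Col4a1 and Col4a2 stay within 0.12 of each other on all arrays, while Col9a1 minus Col9a2 is 2.15 or more in KO and at most 0.77 in WT. The WT points of the pair with Col8a1 are not measured differences, since Col8a1 was at background there.

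Genes that modify, fold, cut, crosslink or bind collagen were read from 4 lists, in which 45 of 52 genes were tested. Of the 45, 18 rose and 5 fell (51.1%, beside 35.3% of all genes), with a median difference of 0.30. The list of propeptide removal and crosslinking had 7 of 11 genes higher and 0 lower by the limma test (63.6%). At an unadjusted p under 0.05 8 passed, the added gene lower. Of its 9 genes well above background on all 6 arrays, 6 rose. Loxl1, a lysyl oxidase that crosslinks fibres, gave -0.19, -0.61 and -1.06 in WT and 1.51, 1.36 and 1.29 in KO, a difference of 2.01 ± 0.20 (adjusted p = 0.000351). Adamts14, a protease that removes the amino-terminal propeptide, rose by 1.29 ± 0.22 (adjusted p = 0.00312), and Pxdn, the peroxidase that crosslinks type IV collagen, by 0.63 ± 0.10 (adjusted p = 0.00262), although no type IV gene rose. Adamts14 and Pxdn lost the call with the slide row block (adjusted p = 0.0536 and 0.0517). Lox was also called higher (adjusted p = 0.00419), but stayed below the level for detection on every WT array, and no fold is given.

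Of 14 genes of proline and lysine hydroxylation 4 rose and 2 fell (42.9%, beside 35.3% of all genes). P4ha2, a catalytic subunit of prolyl 4-hydroxylase, rose by 1.19 ± 0.14 and P3h3 by 1.08 ± 0.13 (adjusted p = 0.000642 and 0.000685). P3h2, a prolyl 3-hydroxylase known to act on type IV collagen, fell, with ratios of 0.03, -0.49 and 0.07 in WT and -1.62, -1.42 and -1.09 in KO (difference -1.24 ± 0.19, adjusted p = 0.00199). Colgalt2, which adds galactose to hydroxylysine, fell as well (-0.90 ± 0.18, adjusted p = 0.00656), and lost the call with the slide row block (adjusted p = 0.0525).

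In folding and secretion 4 of 11 rose and 1 fell (45.5%, beside 35.3% of all genes). Fkbp7, Fkbp10 and Fkbp14, prolyl isomerases of the endoplasmic reticulum, rose by 1.35 ± 0.12, 0.69 ± 0.12 and 0.64 ± 0.16 (adjusted p = 0.000249, 0.00334 and 0.0147), the last not called with the slide row block (adjusted p = 0.244). Mia2, which helps to load large cargo at exit sites, fell (-0.48 ± 0.10, adjusted p = 0.0062). Serpinh1, the collagen chaperone HSP47, named here after its values were seen, was not called and had KO ratios of 0.89, -0.31 and -0.29.

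The receptors divided. Ddr2, a receptor kinase for fibrillar collagen in mesenchymal cells, gave 0.02, -0.63 and -1.22 in WT and 1.36, 1.34 and 1.47 in KO (2.002 ± 0.27, adjusted p = 0.00113). Itga11, an integrin subunit of fibroblasts that binds type I collagen, rose by 1.86 ± 0.28 (adjusted p = 0.00177). Ddr1, the kinase of the same family found in epithelia, fell (-0.75 ± 0.15, adjusted p = 0.00545), as did Adgrg1, a receptor for type III collagen, by 1.96 on the log2 scale (SE 0.16, adjusted p = 0.000223). In all, 3 of 9 receptor genes rose and 2 fell (55.6%, beside 35.3% of all genes).

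**Figure D5:**
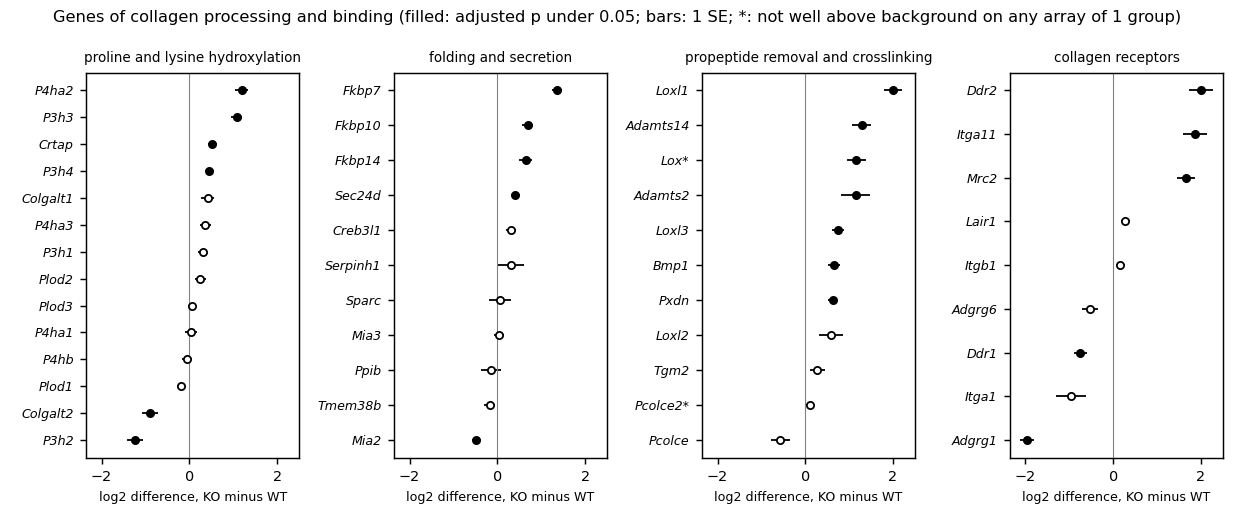
Difference between KO and WT (x axis, log2, bars 1 SE) for the 45 tested genes of collagen hydroxylation, folding and secretion, propeptide removal and crosslinking, and collagen receptors. Filled points passed the test, and asterisks mark genes below detection on every array of 1 group. Crosslinking genes lie mostly to the right, and the receptors Ddr2 and Adgrg1 lie about 2 to either side of 0.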

How the data were processed

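RNA of 3 KO and 3 WT samples was measured on Agilent arrays with 2 colours, Cy5 for the sample and Cy3 for WT replicate 1. The deposited files hold median spot and background intensities, written by Feature Extraction 10.7.3.1 per the file headers (version 6.1 per the submitters' processing notes). The deposited log10 ratio of Cy5 over Cy3 was made by that program from background-subtracted, dye-normalised intensities, per the file headers, and the authors' series matrix repeats these log10 ratios to within 0.00499.

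Each array had 59305 non-control spots and 55681 probes. Of these, 27509 were named through RefSeq accessions (GRCm38.p6), which gave 20887 genes. Intensities were corrected by normexp (offset 50) and normalised by loess within arrays, with controls at weight 0 and outlier spots left out. Spots of a probe were averaged. A probe was kept where at least a share of 0.5 of its spots was well above background on 3 or more arrays, and the probe of highest mean signal stood for its gene. KO was compared with WT by limma 3.58.1 in R 4.3.3 (lmFit, eBayes), 2-sided, with Benjamini-Hochberg adjustment over 14755 genes and a threshold of 0.05. The fit was tested on simulated data. The number of arrays limits the precision, and no spot was saturated.

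All tested collagen genes are named, and of the processing and receptor lists up to 4 called genes each with the largest and smallest differences. The members and lists were chosen with earlier results of these data known. Alternatives were the Agilent log ratio, the series matrix, median centring, Cy5 alone at the 75th percentile, an offset of 16, other filters, the mean of probes, replicate number and slide row as blocks, and leaving out each array. Probe levels were not compared between genes. Promoter windows came from a RefSeq table. Col4a1, Col4a2 and Col4a4 windows overlap neighbouring genes and are not shown. Sequences of other members were not used here.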

Additional observations from a re-analysis of the deposited data

How the results depend on the processing

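Of 16 alternatives, 15 left the count of called collagen genes between 19 and 26 (25 in the fit reported), and slide row as a block gave 11 (8 higher, 3 lower). That block gave 2204 calls among all genes (730 higher, 1474 lower) and 13 among processing and receptor genes (9 higher), and medians of 0.82 for type VI, 0.77 for FACIT and 0.39 for transmembrane genes. With median centring the lower calls were 1036 for all genes, 1 for collagen genes (Col4a4) and 3 for processing and receptor genes, the higher calls of collagen genes were 23, and 74.3% of all calls were higher, against 43.4%. Class medians were then 1.12 for fibrillar, -0.054 for type IV, 1.26 for FACIT and 0.80 for transmembrane genes. The fibrillar median was 1.53 with the Agilent log ratio and with the series matrix, 1.73 with Cy5 alone, 1.02 with an offset of 16 and 1.86 over genes well above background on all arrays. For FACIT genes these were 1.62, 1.62, 1.77, 1.15 and 1.54, and for transmembrane genes 1.78, 1.78, 1.79 and 0.85 under the first 4. The transmembrane medians, here and below, rest on 3 genes and take in Col13a1, below detection on every WT array. They are not measured sizes of change. The cause was not tested.

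Leaving out 1 array gave 3243 to 5715 calls among all genes (1269 to 2373 higher, 1974 to 3342 lower), 15 to 21 higher and 4 to 5 lower collagen genes, and 19 to 29 processing and receptor genes (14 to 21 higher, 5 to 8 lower). The medians ran from 0.75 to 0.98 for fibrillar, -0.45 to -0.26 for type IV, 1.18 to 1.88 for type VI, 0.79 to 1.07 for FACIT and 0.46 to 0.62 for transmembrane genes.

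Differences of genes not called turned sign as follows. With median centring Col4a6 was 0.19, Col4a1 0.24, Col4a2 0.22, Col20a1 0.0038 and Col9a2 0.0678. Col6a4 was 0.60 with the Agilent log ratio and the series matrix and 0.59 with Cy5 alone, and -0.27 to 0.0796 without single arrays. Col27a1 ran from -0.0315 to 0.20 without single arrays, and was -0.0029 without KO replicate 3. With the Agilent log ratio the pairs Col4a1 minus Col4a2, Col6a1 minus Col6a2 and Col15a1 minus Col18a1 turned to -0.0237, -0.18 and -0.17. Without single arrays Col1a1 minus Col1a2 ran from -0.0688 to 0.40, Col4a1 minus Col4a2 from -0.0247 to 0.0437 and Col6a1 minus Col6a2 from -0.0133 to 0.0683. The cause was not tested.

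Replicate numbers were not taken as pairs. Deviations of arrays with the same number correlated at 0.14, 0.08 and 0.20 over all genes, and every array correlated best with its own number, a hint from the data and not from the design. With replicate number as a block 24 collagen genes were called (19 higher, 5 lower), the call of Col22a1 being lost (adjusted p = 0.0618), and 5130 of all genes.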
